A study of Homo sapiens with 43 samples.

Results

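KLF5 and the DNA that follows it on chromosome 13 were described by the peaks listed between positions 73600001 and 74400000 of hg19, an 800 kb window with the gene near its left end. KLF5 was placed at chr13:73629114-73651680 and reads from left to right, so that "downstream" is to its right. The window was chosen by the H3K27ac peak lists themselves (H3K27ac is the acetylation of lysine 27 of histone H3), since HARA carried a very long peak near 73891000 to 74010000. The acetylation of HARA is therefore a description, and HARA entered a test only as a stated alternative. All 580 peaks whose span touched the window were taken, of 652792 peaks in 27 lists. They comprised 496 H3K27ac peaks from 17 lists, 76 Sox2 peaks from 7 lists, 7 Brn2 peaks from 2 lists and 1 p63 peak from 1 list.

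The study mapped chromatin by immunoprecipitation and sequencing (ChIP-seq) in established human lung squamous cell carcinoma lines kept in serum-containing medium. Set A was LK2 and NCI-H520, profiled for H3K27ac, Sox2 and Brn2. Set B was HCC95, KNS62 and HCC2814, profiled for H3K27ac and Sox2. Set C, profiled for H3K27ac alone, was Calu-1, HARA, SQ-1, NCI-H2887, HCC2279, LC-1/SQSF, EBC-1 and HCC2450. The derivatives of LK2 called LK2_DNp63 and LK2_GFP, whose construction the labels do not give, were profiled for H3K27ac and Sox2, and LK2_DNp63 also for p63. H3K27ac had 2 libraries in LK2 and in NCI-H520, and every other line and target had 1. The sets name what was measured in a line and not which factors it expresses.

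KLF5 is a zinc-finger transcription factor of proliferating epithelial cells, including the basal layer of squamous epithelia, and it binds GC-rich elements. H3K27ac marks active promoters and enhancers, and long runs of it are often called super-enhancers. Sox2 is a high-mobility-group factor of progenitor and squamous cells, Brn2 (POU3F2) a POU homeodomain protein known from the nervous system, and p63 the lineage factor of basal and squamous cells, with DNp63 its usual isoform there. RefSeq lists no protein-coding gene between KLF5 and KLF12, its next coding neighbour to the right. It places pseudogenes and non-coding RNAs such as LINC00393 and LINC00392 between them.

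RefSeq lists 2 transcription starts for KLF5, 4029 bp apart in GRCh38.p14. The 250 bases before each are shown because a peak at the gene began near the distance of the second start in most libraries. In the first sequence capitals mark the only match to the SOX core CATTGT, and in the second they mark the 2 matches to the GC box GGGCGG, both of which lie on the reverse strand as CCGCCC.
KLF5 start 1: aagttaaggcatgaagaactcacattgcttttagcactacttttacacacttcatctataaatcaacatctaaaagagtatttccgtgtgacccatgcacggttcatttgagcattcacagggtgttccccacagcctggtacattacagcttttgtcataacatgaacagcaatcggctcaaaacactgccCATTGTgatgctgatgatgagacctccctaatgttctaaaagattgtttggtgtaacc
KLF5 start 2: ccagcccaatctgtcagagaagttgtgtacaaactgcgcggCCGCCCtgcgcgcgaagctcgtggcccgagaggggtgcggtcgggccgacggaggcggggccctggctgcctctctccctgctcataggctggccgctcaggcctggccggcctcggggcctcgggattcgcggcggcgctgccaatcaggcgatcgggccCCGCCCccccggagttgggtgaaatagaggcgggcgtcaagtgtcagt

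The sequences are chr13:73054726-73054975 and chr13:73058755-73059004 on the plus strand of GRCh38.p14, a build whose positions are not those of the peak lists. The stretch before the first start was 40.8% G or C and held 3 CpG pairs, and that before the second was 70.8% G or C and held 27. Over 35116 RefSeq promoters, the same 250 bases had a median of 58.0% G or C, with 34.4% and 78.4% at the 5th and 95th percentiles. Both strands were searched for the GC box GGGCGG, for the SOX core CATTGT, for the octamer core ATGCAAAT and for the AP-1 element TGACTCA, and no 2 matches overlapped. These were present in 42.6%, 9.29%, 1.63% and 4.20% of all promoters. Neither KLF5 stretch held the octamer core or the AP-1 element.

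Acetylation at the gene was common to the lines. The segment chr13:73629562-73636603, inside the gene and just after the first start, held acetylation in all 13 unmodified lines, of which 0.975 kb was covered in every line. It belonged to the 1 region, of 99 merged regions in the window, found in all of them. Peak starts were sought only from 3800 to 4200 bp after the first start, which limits the spread that could be found. In 15 of 17 libraries a peak began 3865 to 4154 bp after the first start (median 4023 bp), close to the 4029 bp between the starts. KNS62 and HCC2450 were the exceptions, with peaks that ran across that point. HCC2279 had this 1 peak, of 1.351 kb, and no other in the window. Near the first start, within 2.5 kb on either side, 4 lines had no acetylation (NCI-H520, EBC-1, HCC2279 and NCI-H2887).

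The amount of acetylation over the window differed widely between lines. Peaks covered 412.104 kb, 51.5% of the window, in HARA. They covered 181.883 kb in LC-1/SQSF, 105.786 kb in HCC2814, 90.025 kb in KNS62 and 49.196 kb in HCC95. The libraries of NCI-H520 had 30.406 and 19.74 kb and those of LK2 14.348 and 16.161 kb. SQ-1 had 22.198 kb, Calu-1 20.955 kb, HCC2450 16.689 kb, EBC-1 16.267 kb, NCI-H2887 7.39 kb and HCC2279 1.351 kb. Within set C, HARA and LC-1/SQSF thus lay above every line of set B, and the other 6 lines below every one. After scaling to an equal total per library LC-1/SQSF had 139 kb and lay under HCC2814 with 177 kb.

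Among all 800 kb tiles of its own list that held a peak, the window was the most covered of 3276 in HARA, the second of 2932 in HCC2814 and the fourth of 3253 in LC-1/SQSF. It ranked 47 of 3296 in KNS62, 255 of 3166 in HCC95 and 2934 of 3118 in HCC2279. The rank in HARA follows from how the window was chosen. The tiles to the left and right had 9.903 and 8.995 kb in HARA, 9.716 and 4.792 kb in LC-1/SQSF, and 7.399 and 6.218 kb in HCC2814.

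**Figure D1:**
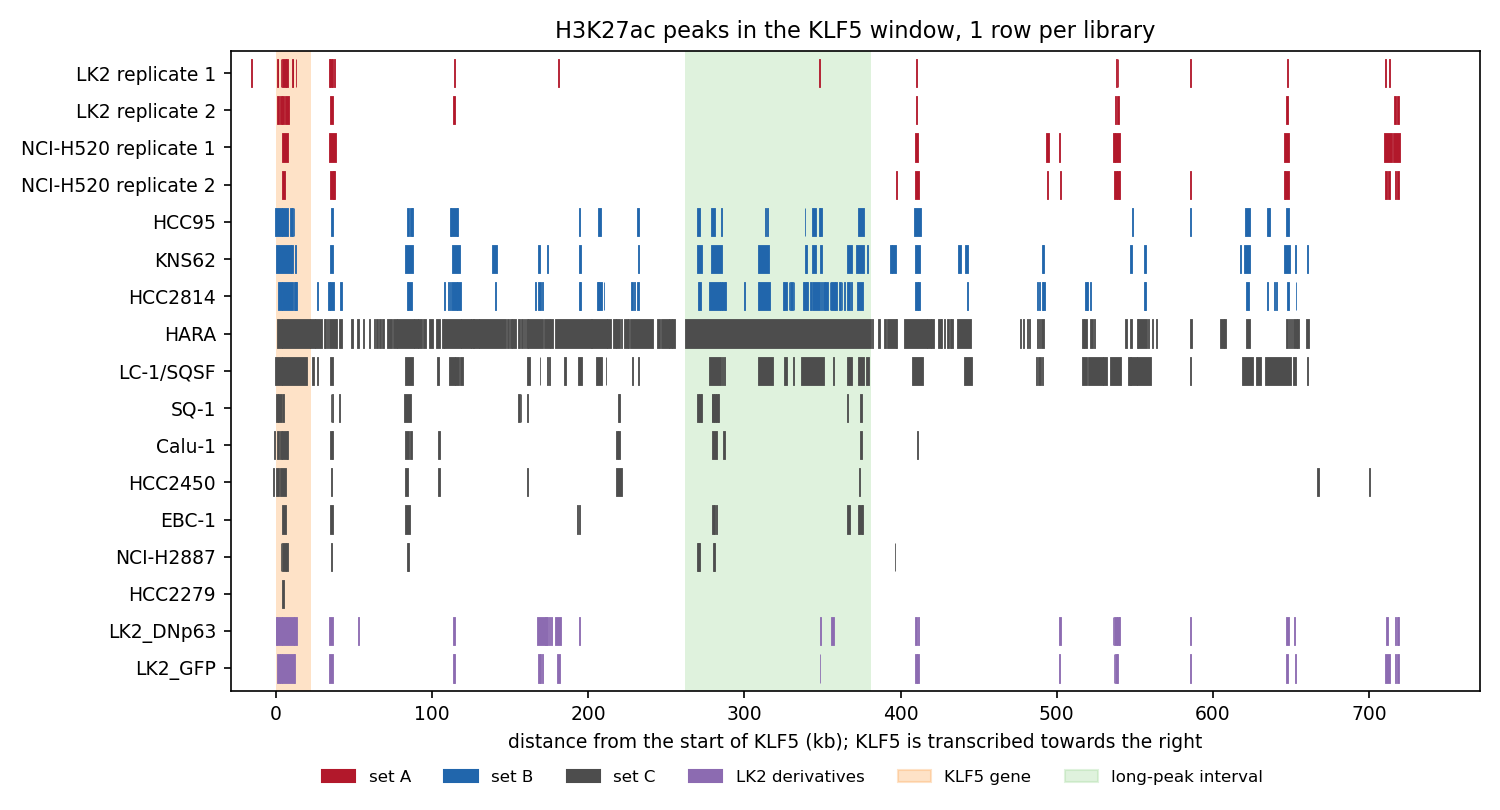
H3K27ac peaks of the 17 libraries along the window, in kb from the first KLF5 start, 1 row per library, coloured by set. A thin outline keeps short peaks visible. HARA is densely filled from the gene to 445.152 kb (374.468 of 444.781 kb covered), HCC2279 has 1 peak, and LK2 and NCI-H520 have next to none in the long-peak interval shaded green.

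HARA lay far above most other lines downstream of the gene, above their median in the gene body, and near it at the first start. The window was split into upstream, promoter (2500 bp to each side of the first start), gene body, near downstream (22.567 to 261.885 kb from the start), the long-peak interval (261.886 to 380.886 kb) and far downstream. Lengths were also scaled to an equal total per library, because the lists covered 24.6 to 73.7 Mb in all. At the promoter HARA had 1.85 kb of scaled length, against a median of 1.87 kb in the other 12 lines, and 6 of the 12 covered at least as much there before scaling. Near downstream it had 164 kb, against a median of 6.69 kb and a highest value of 45.6 kb. In the long-peak interval the values were 104 kb in HARA, against a median of 6.11 kb and a highest of 85.1 kb. Far downstream they were 71.7 kb in HARA, against a median of 5.94 kb and a highest of 64.7 kb. Before scaling HARA had 82.352 kb there, less than LC-1/SQSF with 84.687 kb.

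The longest HARA peak, chr13:73890883-74010437, spanned 119.555 kb and was the longest of the 35942 peaks in that list. The next, on chromosome 17, spanned 74.561 kb. The interval from 73891000 to 74010000, which HARA covered whole, was covered for 50.771 kb in HCC2814, 44.675 kb in LC-1/SQSF, 32.765 kb in KNS62 and 14.341 kb in HCC95. In LK2 it held 0.354 kb in replicate 1 and none in replicate 2, and in NCI-H520 none in either library. Other long HARA peaks flanked it, of 23.178 kb from 178.354 kb after the start, 17.926 kb in the gene and 15.021 kb from 402.025 kb.

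Other lines with much acetylation held it in shorter pieces. The longest peak was 7.151 kb in HCC2814 (28th by length in its list), 9.554 kb in KNS62 (80th) and 16.743 kb in LC-1/SQSF (50th). When peaks within 12.5 kb were joined, a choice made after the data had been seen, HARA had a domain of 444.781 kb from 0.372 kb after the start, the longest of 20192. HCC2814 had one of 105.702 kb, the longest of its 16641, from 270.206 to 375.907 kb after the start, of which peaks covered 50.771 kb. LC-1/SQSF had one of 70.886 kb (49th of 20518), and KNS62 one of 19.308 kb (1616th of 23236).

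Acetylation in the other lines lay mostly where HARA had it too. HARA held 233.215 kb alone, 56.6% of its acetylated length, and 56 of the 99 merged regions held HARA and no other line. Of the length acetylated in any other line, 72.3% was inside HARA peaks. That share was 100% in NCI-H2887, 96.3% in HCC2814, 93.9% in KNS62, 91.4% in HCC95, 73.0% in LC-1/SQSF, 69.8% in LK2 and 38.4% in NCI-H520. HARA covered 51.5% of the window, so a large share inside its peaks is partly a matter of extent.

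**Figure D2:**
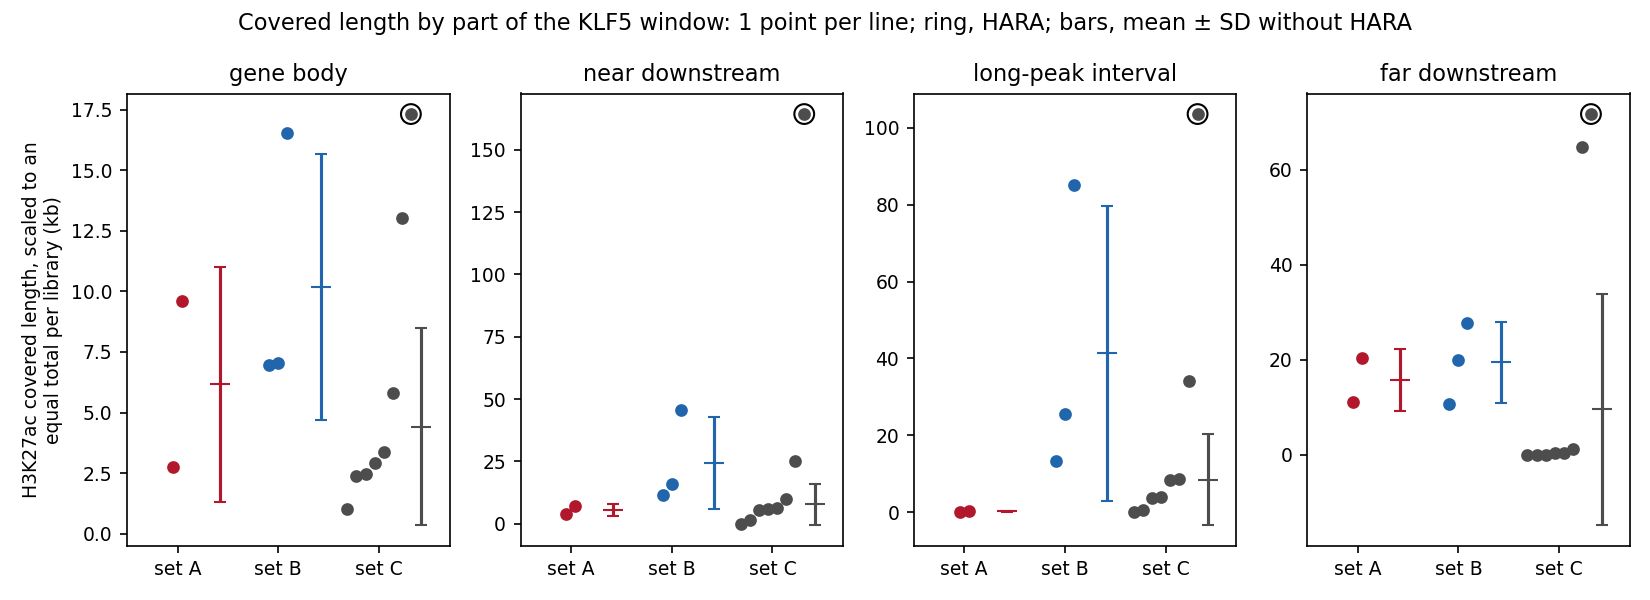
Scaled H3K27ac length in kb in 4 parts of the window, 1 point per line, by set. Bars give the mean ± SD of each set without HARA, which is ringed. HARA stands highest in each of the 4 parts on this scale and furthest from the rest near downstream, where it had 164 kb and the next line 45.6 kb.

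Beside the gene, 6 segments were acetylated in 7 or more lines, a line being counted where any base was covered. The closest, chr13:73663817-73665735, lay 35.7 kb from the start and was acetylated in 12 lines, HCC2279 being the exception. The next, chr13:73711986-73715522 at 84.6 kb, was acetylated in 10 lines, and not in LK2, NCI-H520 or HCC2279. In the long-peak interval, chr13:73908279-73911301 and chr13:74002519-74004170 were each acetylated in 9 lines, and in neither line of set A. Far downstream, chr13:74039016-74039976 was acetylated in 8 lines and chr13:74276660-74277418 in 7, with LK2 and NCI-H520 in both.

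The sets were then compared without HARA, whose peak had chosen the window. Over fixed parts, 0 of 18 exact permutation tests over lines passed Benjamini-Hochberg adjustment (smallest adjusted p = 0.45), and 1 had an unadjusted p under 0.05. That was the long-peak interval, with 41.3 ± 38.5 kb of scaled length in set B (SD, n = 3) and 8.42 ± 11.8 kb in set C (SD, n = 7; two-sided exact p = 0.0417). The lines were 85.1 kb in HCC2814, 25.6 kb in KNS62 and 13.2 kb in HCC95, and in set C 34.1 kb in LC-1/SQSF and from 0 to 8.56 kb in the other 6. The groups overlapped through LC-1/SQSF. The difference of 32.9 kb became 10.9 kb without HCC2814 (exact p = 0.278), and without LC-1/SQSF it was 37.1 kb (exact p = 0.0119).

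Set A had 0.161 ± 0.228 kb of scaled length in that interval (SD, n = 2), against 41.3 ± 38.5 kb in set B (SD, n = 3). The lines of the 2 sets did not overlap, but 2 lines against 3 cannot give an exact p below 0.1, and the value was 0.2. Set A was not low everywhere. Far downstream it had 15.6 ± 6.51 kb, against 19.4 ± 8.57 kb in set B (exact p = 0.7). There set A also had 15.6 kb against 9.51 ± 24.4 kb in set C (exact p = 0.806), where LC-1/SQSF had 64.7 kb and the median was 0.306 kb.

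Bins of 50 kb were tested over the whole genome with limma, on log2 of the scaled length plus 1000 bp, keeping those that averaged 2000 bp or more. Of 16 bins in the window, 9 passed that filter. Between set A and set B, 1 of the 9 was called at an adjusted p under 0.05, where 9.46% of 9121 bins genome-wide were called (3.51% higher and 5.95% lower in set A). It was the bin from 73900001 to 73950000. No peak was listed there in LK2 or NCI-H520, against 33.3 kb in HCC2814, 13.1 kb in KNS62 and 4.84 kb in HCC95 (log2 difference -3.82, SE 1.04, limma adjusted p = 0.0363). Since set A was at 0, the size of this difference depends on the 1000 bp added. The bin passed the filter through the other sets alone.

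Set A and set B did not overlap in 6 of the 9 bins, where 39.4% of bins genome-wide did not. The median log2 difference of set A minus set B over the 9 bins was -1.74, beside -0.17 over all bins tested. Window bins dropped by the filter went both ways. That from 74300001 had 4.21 kb in LK2, 7.77 kb in NCI-H520 and 0 in each line of set B. That from 73850001 had 0 in both lines of set A and 1.95 to 6.30 kb in set B. The call was lost with HARA in the fit (limma adjusted p = 0.095), with no scaling (0.0646), with 5000 bp added (0.0575) and with equal numbers of top peaks (0.109). It was also lost without LK2 (0.196), NCI-H520 (0.217), HCC2814 (0.129) or KNS62 (0.0868). The log2 difference was -3.82 with HARA in the fit and without LK2, NCI-H520 or KNS62, and -3.18 without HCC2814. Without LC-1/SQSF 4 of the 7 window bins that then passed the filter were called, where 12.3% were called genome-wide. Without HCC2279 it was 2 of 9, where 9.26% were called.

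No bin was called between set A and set C by limma (0 of 9). An unadjusted p under 0.05 was found in 1 of the 9, beside 30.6% of bins genome-wide. Adjusted, 14.8% of bins were called genome-wide (6.17% higher and 8.67% lower in set A). The lines did not overlap in 1 of the 9, beside 21.8% genome-wide. The median log2 difference was 0.23 over the 9 bins, beside -0.09 over all. The bin from 73650001 to 73700000, which holds the segment of 12 lines, had the smallest p. It held 4.42 ± 0.669 kb in set A (SD, n = 2), against 1.27 ± 1.01 kb in set C (SD, n = 7; log2 difference 1.38, SE 0.57, limma adjusted p = 0.124).

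Between set B and set C, 0 of 9 bins were called by limma, where 0.11% were called genome-wide (0.0877% higher and 0.0219% lower in set B), and 6 of the 9 had an unadjusted p under 0.05, beside 15.7% of bins genome-wide. The lines overlapped in all 9, and 4.08% of bins genome-wide were without overlap. The log2 difference was above 0 in all 9, with a median log2 difference of 1.70, beside 0.11 over all bins. In the bin from 74150001 the mean length went the other way, with 2.17 kb in set B and 3.53 kb in set C, where LC-1/SQSF had 24.7 kb. The smallest adjusted p, 0.149 in limma, was that of the bin from 74000001 to 74050000, with 9.72 ± 2.48 kb in set B (SD, n = 3), against 2.23 ± 3.41 kb in set C (SD, n = 7). These counts rested on LC-1/SQSF. Without it, 4 of the 7 window bins that passed the filter were called, the smallest limma adjusted p being 0.000549, where 664 bins (7.24%) were called genome-wide in place of 10.

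**Figure D3:**
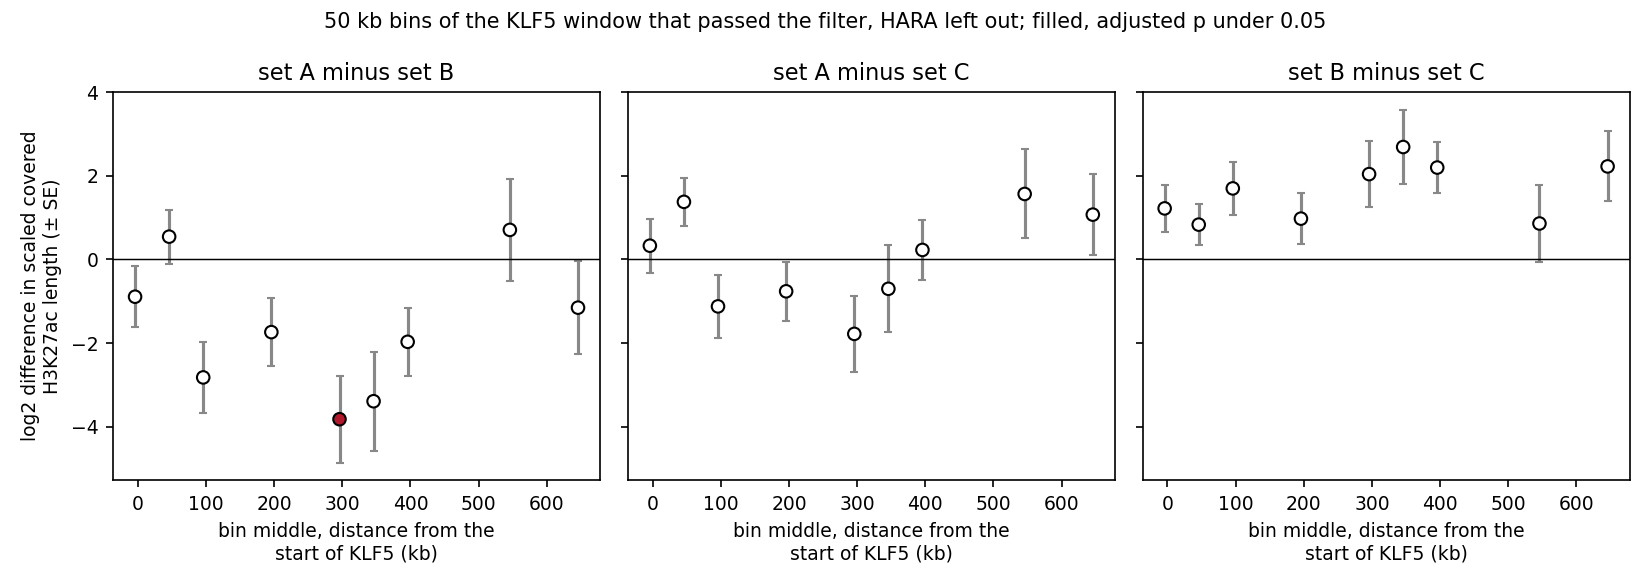
Log2 difference in scaled H3K27ac length between sets (± SE) in the 9 tested bins of 50 kb, by distance of the bin's middle from the first KLF5 start. HARA is left out. The 1 filled point, 295.887 kb from the start in set A minus set B, was called, and all 9 points of set B minus set C lie above 0.

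Sox2 was listed in the long-peak interval in set B and not in set A, a description with no test. Over the 5 unmodified lines the Sox2 peaks merged into 40 sites, of which 26 were in 1 line, 10 in 2, 3 in 3 and 1 in all 5. Set A alone held 9 sites, set B alone 26 and both sets 5. Outside the window set A alone held 13161 sites, set B alone 19166 and both sets 3452, so the order of the counts was the same there. In the long-peak interval 10 sites were found, all in set B and none in LK2 or NCI-H520. No site lay within 2500 bp of the first start. The lists differed in size, with 7628 and 12117 Sox2 peaks in LK2 and NCI-H520, and 14074, 8926 and 7551 in HCC95, KNS62 and HCC2814, so that the absence of a peak was not read as absence of binding.

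The site in all 5 lines, chr13:73664384-73665138, lay in the segment 35.7 kb downstream that 12 lines had acetylated. LK2_DNp63 and LK2_GFP also had Sox2 there, which made it the site of all 7 Sox2 lists. Its rank by the authors' peak score was 1679 of 7628 in LK2, 4479 of 12117 in NCI-H520, 9205 of 14074 in HCC95, 8918 of 8926 in KNS62 and 1549 of 7551 in HCC2814. It was thus among the weakest listed peaks of KNS62. Inside the gene, chr13:73639854-73640780 had Sox2 in LK2, HCC95 and HCC2814, and was acetylated in those lines and in KNS62, HARA and LC-1/SQSF. The site at 84.2 kb had Sox2 in LK2, HCC95 and KNS62, and was acetylated in HCC95 and KNS62 but not in LK2.

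Of the 10 sites in the long-peak interval, 4 were in 2 lines. KNS62 and HCC2814 shared those at 311 kb and 367 kb, HCC95 and HCC2814 that at 284 kb, and HCC95 and KNS62 that at 375 kb. The KNS62 peak at 311 kb ranked 235 of 8926 in its list. All 4 were acetylated in LC-1/SQSF, and also in HARA, which covers that interval whole by the choice of the window. Near downstream, HCC95 and HCC2814 shared a site at chr13:73835850-73836612, 207 kb from the start, which ranked 280 of 14074 in HCC95 and 265 of 7551 in HCC2814. It was the best ranked Sox2 site of the window in HCC2814 and HCC95, and had acetylation in HCC2814, HCC95, HARA and LC-1/SQSF.

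Of the 26 sites of set B alone, 23 lay in HARA peaks and 19 in those of LC-1/SQSF, lines with no Sox2 list here. Those are 88.5% and 73.1%, beside 30.1% and 36.1% of the 19166 sites of set B alone outside the window, and beside 51.5% and 22.7% of the window's length covered in these lines. Of the 26 sites, 10 lay in the long-peak interval, which was drawn from the HARA peak and is covered whole in HARA. For HARA those 10 were fixed in advance. The count of the 26 sites was 20 in KNS62 (76.9%, beside 44.2% outside), 17 in HCC2814 (65.4%, beside 26.1%) and 13 in HCC95 (50%, beside 41.1%). It was 5 in SQ-1 and EBC-1, 3 in LK2 and Calu-1, 2 in NCI-H520 and NCI-H2887, and 0 in HCC2450 and HCC2279, beside 9.66% in LK2 to 26.5% in EBC-1 outside the window in these 8 lines. Of the 9 sites of set A alone, 4 were acetylated in NCI-H520 (44.4%, beside 48.1% of 13161 such sites outside) and 3 in LK2 (33.3%, beside 31.6%). There were 2 in HARA (22.2%, beside 11.1%), 1 in LC-1/SQSF (11.1%, beside 13.8%) and none in the other 9 lines. Outside the window those 9 lines had 8.75% in HCC2814 to 13.2% in KNS62, and 9 sites are too few to set against such shares. Over both kinds and the 5 shared sites, 4 of 40 were acetylated in none of the 13 lines.

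Sox2 peaks in the window were often acetylated in their own line. The share was 12 of 13 in KNS62 (92.3%, Wilson 95% interval 66.7 to 98.6), beside 60.6% of its whole Sox2 list. It was 10 of 11 in HCC2814 (90.9%, 62.3 to 98.4), beside 38.3%, and 14 of 19 in HCC95 (73.7%, 51.2 to 88.2), beside 56.1%. In LK2 it was 5 of 9 (55.6%, 26.7 to 81.1), beside 39.5%, and in NCI-H520 5 of 8 (62.5%, 30.6 to 86.3), beside 60.9%. In the derivatives it was 8 of 10 in LK2_GFP (80.0%, 49.0 to 94.3), beside 43.9%, and 6 of 6 in LK2_DNp63 (100%, 61.0 to 100), beside 45.5%. The share in the window was above that of the whole list in every list, though only slightly in NCI-H520. The peaks of a list come from the same library and are not replicates, so the intervals were not used as a test. Intervals cover counting error only, and the window was chosen for its acetylation.

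**Figure D4:**
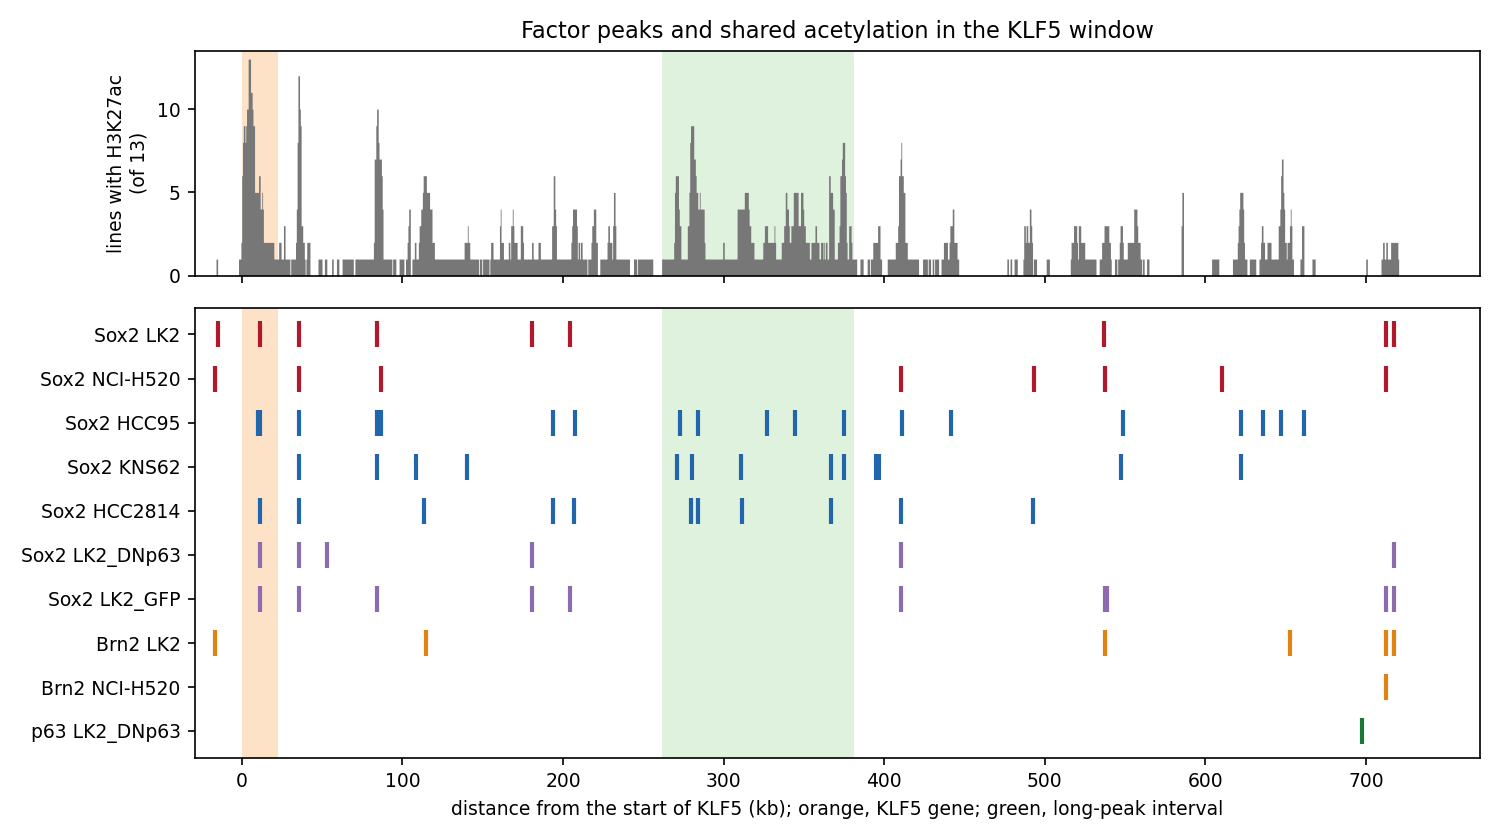
Upper panel, number of the 13 unmodified lines with H3K27ac, as the highest count in each 0.5 kb step, by distance from the first KLF5 start. Lower panel, Sox2, Brn2 and p63 peaks, 1 row per list. The green long-peak interval holds Sox2 peaks of HCC95, KNS62 and HCC2814 and no peak of the other 7 lists, and the column of all 7 Sox2 lists stands at 35.7 kb.

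Brn2 had 6 peaks in the window in LK2 and 1 in NCI-H520, and none within the gene or the long-peak interval. The NCI-H520 peak and an LK2 peak met at chr13:74341337-74341922, 713 kb from the start, a site with Sox2 in both lines, singled out after the values were seen. The LK2 peak there ranked 594 of 4834 and the NCI-H520 peak 596 of 1307. The site was acetylated in NCI-H520 and in no other unmodified line. The Sox2 peak of LK2_GFP at this site touched an H3K27ac peak of LK2_GFP. LK2 also had Brn2 together with Sox2 at 537 kb and at 718 kb, both acetylated in LK2 and NCI-H520, and the first also in LC-1/SQSF. Sites with Brn2 and Sox2 in LK2 or NCI-H520 thus lay 537 kb or more from the start, apart from 1 on the left of the gene at -16.7 kb, which had no acetylation in any line, the Sox2 peak there being of NCI-H520 and the Brn2 peak of LK2. The sites at 718 and -16.7 kb were likewise singled out after the values were seen. The NCI-H520 list was the smaller, with 1307 Brn2 peaks against 4834 in LK2.

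p63 had 1 peak in the window in LK2_DNp63, at chr13:74326163-74326892, 697 kb from the start. It ranked 552 of 3166. No line had acetylation there, and the nearest LK2_DNp63 H3K27ac peak was 12938 bp away.

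LK2_DNp63 had more acetylation near KLF5 than LK2_GFP, with 1 library each and so no test. Peaks covered 46.976 kb of the window in LK2_DNp63, against 31.545 kb in LK2_GFP and 14.348 and 16.161 kb in the libraries of LK2. The lists were of similar size, with 30262 and 33546 peaks. Most of the difference lay near downstream, with 17.709 kb in LK2_DNp63 against 7.97 kb in LK2_GFP (25.7 against 12.5 kb scaled). In the gene body the lengths were 10.454 kb in LK2_DNp63 and 9.07 kb in LK2_GFP, and far downstream 13.955 and 11.967 kb. In the long-peak interval they were 2.138 kb in LK2_DNp63 and 0.369 kb in LK2_GFP.

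Of 32 LK2_DNp63 peaks, 11 touched no LK2_GFP peak (34.4%, beside 26.6% over the whole LK2_DNp63 list). These 11 touched no LK2 peak either, where 22.0% of the whole LK2_DNp63 list touched no peak of LK2_GFP or LK2. Each of the 24 LK2_GFP peaks touched a peak of LK2_DNp63, where 26.5% of the whole LK2_GFP list did not. The shared length was 28.799 kb, which is 61.3% of LK2_DNp63 and 91.3% of LK2_GFP. LK2_DNp63 alone held 18.177 kb, of which 71.6% was inside HARA peaks, and LK2_GFP alone held 2.746 kb. HARA peaks covered 51.5% of the window and 78.9% of its near-downstream part, so the share inside them is partly a matter of extent. A run of 6 peaks in LK2_DNp63 lay at chr13:73796102-73805640, singled out after the values were seen. Its longest, of 5.113 kb, was covered for 2686 bp in LK2_GFP and not at all in LK2, and the other 5 were absent from LK2_GFP. It held no p63 or Sox2 peak. LK2_GFP was itself unlike LK2, with 7.97 kb near downstream against 3.988 and 3.334 kb in the LK2 libraries.

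Sox2 peaks in the window numbered 6 in LK2_DNp63 and 10 in LK2_GFP, from lists of 4229 and 12057 peaks. They shared the sites in the gene and at 35.6, 181, 411 and 718 kb. The LK2_DNp63 peak at 52.9 kb had no counterpart in another list, and LK2_DNp63 and HARA were the lines acetylated there.

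The lines with most acetylation downstream of KLF5 were also those with most acetylation at p63 sites elsewhere. The p63 sites are those of 1 library of LK2_DNp63. Of 3158 p63 sites of LK2_DNp63 outside the window, 45.1% were acetylated in HARA, 46.5% in LC-1/SQSF, 33.2% in HCC2814, 55.4% in KNS62 and 53.0% in HCC95. In the other 8 lines the share was 12.3% in NCI-H2887 to 24.8% in LK2. The scaled length downstream of KLF5 was 340 kb in HARA, 158 kb in HCC2814, 124 kb in LC-1/SQSF, 61.2 kb in KNS62 and 35.5 kb in HCC95, and 0 to 24.2 kb in the other 8. The step between the 5 and the 8 was smaller than the largest step among the 5 on both measures, and within the 5 the order differed. Over the 13 lines the 2 measures had Spearman's rho of 0.80 and Pearson's r of 0.71 (length on a log2 scale), and r was 0.83 without KNS62 and HCC95, the lines farthest from the median share. Without HARA, whose peak chose the window, rho was 0.80 and r was 0.67. For the other 7 factor lists over the 13 lines rho was -0.02 for the Sox2 sites of KNS62, 0.21 for LK2, 0.25 for NCI-H520, 0.55 for HCC95 and 0.57 for HCC2814, and 0.36 and 0.37 for the Brn2 sites of LK2 and NCI-H520. These values are descriptions. Both values of a line come from the same library, and p63 was not profiled in any of these 13 lines here.

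**Figure D5:**
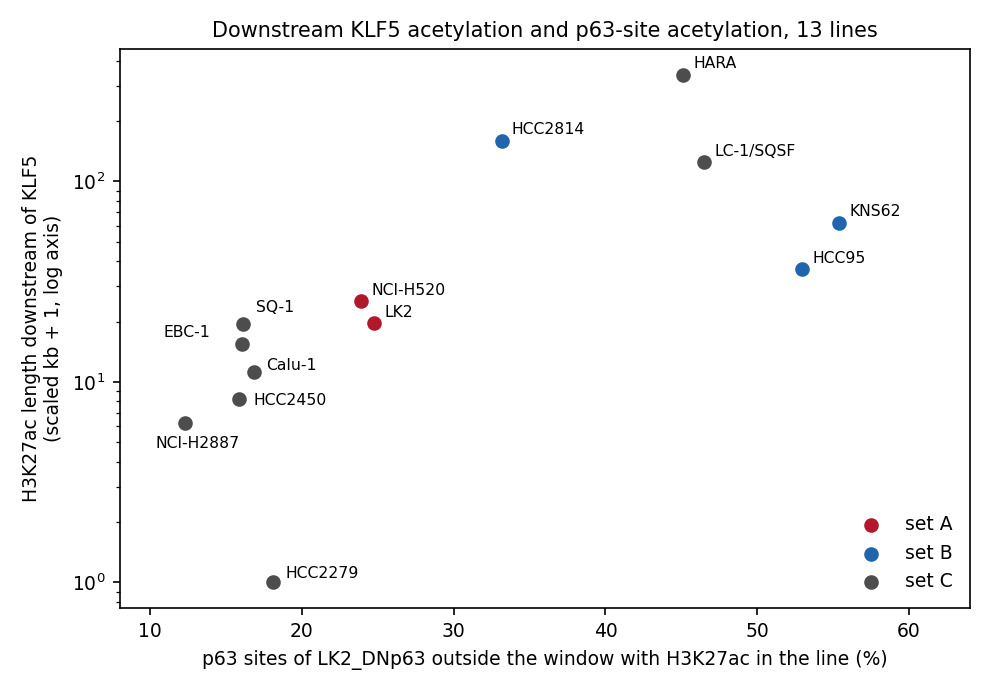
Scaled H3K27ac length downstream of KLF5 (kb plus 1, log axis) against the share of 3158 p63 sites of LK2_DNp63 outside the window that carry H3K27ac, 1 point per line. HARA, LC-1/SQSF, HCC2814, KNS62 and HCC95 are the 5 highest on both axes, and the other 8 lines have shares of at most 24.8%. The window was chosen by a HARA peak.

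The 10 bins elsewhere whose scaled length was most like that of the downstream parts over the 13 lines had Spearman's rho of 0.904 to 0.945, beside a median of 0.09 and a 95th percentile of 0.67 over 9134 bins. The closest was the bin from 127850001 on chromosome 8, with 28.0 kb in HARA, 9.61 kb in LC-1/SQSF, 1.78 to 3.60 kb in the lines of set A and set B and 0 in the 6 other lines of set C. The others began at 128350001 on chromosome 8, 52500001 on chromosome 12, 87800001 on chromosome 16 and 182100001 on chromosome 3. They also began at 54700001 on chromosome 6, 20400001 on chromosome 2, 38300001 and 17700001 on chromosome 17, and 147300001 on chromosome 5. Without HARA rho was 0.877 to 0.944 in the 10, which were picked as the highest of 9134 and share each line's library with the window.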

How the data were processed

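The authors' deposited lists give each peak's chromosome, start, end, name and a score. The score, of unstated scale and at least 50, is the authors' own, and peaks were ranked by it inside each list. The alignment used Bowtie2 and the build hg19, per the submitters' processing notes. How peaks were called (version, threshold, inputs) is not given in the sources used here. Depth is unknown. The 16 input samples were not analysed here. Per the labels' protocols, Brn2 chromatin had a second fixative and was digested with micrococcal nuclease, unlike the rest.

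Peaks were merged per library (Python 3.11.15), clipped to chr13:73600001-74400000 and summed by part. Scaled lengths are multiplied so that every library reaches the mean total of the unmodified libraries. LK2 and NCI-H520 libraries were averaged to 1 value per line. Sets were compared by exact permutation tests over lines (two-sided, 18 tests, Benjamini-Hochberg) and by limma 3.58.1 over bins with a mean-variance trend, HARA left out. The limma step was first tested on simulated data. A factor peak counted as acetylated with 1 bp of overlap. Whether lines or libraries were grown independently is not in the labels, and a p-value here reflects the spread among these samples alone, which may be technical.

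The window, its parts, the position of KLF5 in hg19 and the lists were chosen with earlier results of these data known. Single peaks named were drawn from the longest of each line, regions of 7 or more lines and Sox2 sites in H3K27ac of 3 or more lines (28 of 40). Not all of these are given, and no rule fixed which were. Some others, such as the Sox2 peaks at 52.9 and 181 kb, lie outside these lists. The 10 most similar bins were ranked by Spearman's rho over lines, at least 1 Mb away. The shares over whole lists that stand beside window counts cover chromosomes 1 to 22 and X. No annotation or genome of hg19 was used here, so other genes, peak sequences and the planned check of cell type markers were left out. Promoter sequences and gene order are from RefSeq.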

Additional observations from a re-analysis of the deposited data

Results flagged for a closer look

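HARA, whose values chose the window, was left out here. Among the other 7 lines of set C, LC-1/SQSF stood apart from the rest in scaled H3K27ac length, its gap to the next line being over the 95% limit of Dixon's test. Far downstream it had 64.7 kb, the next line being HCC2450 with 1.25 kb, a gap of 0.981 of the whole range. In the long-peak interval it had 34.1 kb, the next being SQ-1 with 8.56 kb (0.749 of the range), and near downstream 24.95 kb, against 9.84 kb in SQ-1 (0.606). In the gene body it had 13.01 kb, the next being NCI-H2887 with 5.82 kb (0.599). Over the downstream parts together the values were 124 kb in LC-1/SQSF and 18.4 kb in SQ-1 (0.851), and over the window 139 kb in LC-1/SQSF and 23.4 kb in SQ-1 (0.838). Chance marks about 1 in 20 groups, and the 6 values come from 1 library and count the same bases in part.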

How the results depend on the processing

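No paired analysis was possible because the lines that share replicate numbers, LK2 and NCI-H520, are in the same set, are averaged to 1 value each and are not compared.

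The count of window bins called between set A and set B (1) became 0 with HARA in the fit, a pseudocount of 5000 bp, no scaling or an equal number of top peaks. It was 2 with no filter, with library 1 of LK2 and NCI-H520 or with bins shifted by 25 kb, and 0 to 4 without single lines (4 of 7 tested without LC-1/SQSF). Between set A and set C it was 1 with no filter and 0 to 1 without single lines, and between set B and set C 0 to 4. The called bin at 73900001 had log2 differences of -6.03 to -1.92 over its alternatives (limma adjusted p 0.0140 to 0.217). Over all bins, set B minus set C gave 0 calls with HARA in the fit, 1 with no scaling, 67 with a pseudocount of 5000 bp, 142 with no filter and 664 without LC-1/SQSF, in place of 10. The counts of window bins leave out the direction of each call. With no filter they also draw on bins such as that from 74300001. That bin had 4.21 kb in LK2, 7.77 kb in NCI-H520 and 0 in each line of set B, opposite in sign to the bin at 73900001. Which bins were called with no filter is not given here.

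Signs turned in set A minus set C (scaled kb), far downstream with HARA included (-1.65) or no scaling (-0.296), and in the gene body with no scaling (-1.39). A promoter of 7500 bp to each side, chosen after seeing the data, gave 1.97 for the promoter and -0.472 for the gene body. In set B minus set C, near downstream was -2.90 with HARA included. Without single lines, set A minus set B ran from -8.36 to 0.847 far downstream, and set A minus set C from -1.19 to 0.699 at the promoter, -1.68 to 5.18 in the gene body and -3.75 to 0.762 near downstream. None of these passed the test. Signs of single bins turned in set A minus set C at 74000001 with HARA in the fit (-0.26), a pseudocount of 5000 bp (-0.0013) or no scaling (-0.11), running from -0.098 to 0.59 without single lines. At 73600001 the value was -0.27 with no scaling and ran from -0.56 to 1.22 without single lines, and in set A minus set B from -1.78 to 0.0016.

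HARA minus the median of the other 12 lines (scaled kb) became, with an equal number of top peaks, 0.776 at the promoter, 119 near downstream, 42.97 far downstream, 262 over the downstream parts and 276 over the window. With no scaling it was 0.2495, 181 near downstream, 374 over the downstream parts and 391 over the window. The share of Sox2 peaks acetylated in their own line was 22.2% in LK2 at 50% overlap (2 of 9, beside 27.4% of the whole list). With equal numbers of top peaks it was 83.3% in LK2 (5 of 6, beside 46.2%) and 0.0% in NCI-H520 (0 of 1, beside 70.5%). In KNS62 it was then 100% (9 of 9, beside 66.5%), and in LK2_GFP 100% (4 of 4, beside 53.2%). The causes were not tested. Depth is unknown, so no peak listed is not read as no acetylation or binding, and listed lengths depend on each library's peak calling.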
